A study of Mus musculus with 4 samples.

Results

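Secreted antagonists of Wnt signalling and genes that mark the output of the pathway were read in the cerebellum of mice that lack Derlin-2 in the central nervous system. The set holds 10 genes. Wif1, Sfrp1, Sfrp2, Sfrp5, Frzb, Dkk1 and Dkk3 encode secreted proteins that are grouped here as antagonists. Axin2, Lef1 and Tcf7l2 encode a target gene product and 2 transcription factors of the pathway. The set was chosen by a measured value of these arrays, the low Wif1 signal in the knockout, so the differences of its members are a description and carry no test. Members were all non-control probes whose RefSeq transcript accession names one of these genes, which gave 16 probes for 10 of the 22911 genes named on the array.

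The data are 4 Agilent 1-colour arrays of total RNA from mouse cerebellum at postnatal day 28, with 2 control and 2 knockout (KO) samples on a C57BL/6 background. Control mice are labelled Derlin-2flox/flox, and the KO mice came from matings of Derl2flox/flox mice with mice whose Cre recombinase is driven by the nestin promoter, so all groups share the floxed allele; the labels do not say whether controls carried Cre. The nestin promoter is active in neural precursors, and cells of other origin, such as microglia and blood vessels, are expected to keep the intact gene. Derlin-2, encoded by Derl2, is an endoplasmic reticulum membrane protein of the machinery that extracts misfolded proteins for degradation. The titles number the samples without naming animals, so errors and p-values rest on the spread between these samples. An SD is that of the probe's own values; an SE is limma's, in which the variance of a probe is moderated by that of all probes.

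Wnt proteins are secreted lipid-modified ligands that bind Frizzled receptors and the co-receptors LRP5 and LRP6. Binding stops a cytoplasmic complex built on Axin and APC from marking beta-catenin for destruction, and beta-catenin then enters the nucleus and works with TCF/LEF factors on target genes such as Axin2. WIF1 and the secreted Frizzled-related proteins bind Wnt ligands outside the cell, whereas DKK1 blocks the LRP co-receptors. In the cerebellum the pathway is known for its part in patterning, in vascular barrier formation and in synapse formation onto granule cells, which make Wnt7a.

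The upstream sequences of Wif1, Sfrp5 and Axin2 are shown because these 3 members had the widest gaps between the control and the KO values. Each is the 250 bases before the annotated transcript start in the RefSeq promoter table of GRCm38.p6, written 5′ to 3′ in the direction of the gene, and capitals mark CpG dinucleotides. The Wif1 stretch is chr10:121033754-121034003 on the plus strand, the Sfrp5 stretch is chr19:42202253-42202502 on the minus strand, and the Axin2 stretch is chr11:108920099-108920348 on the plus strand.
Wif1: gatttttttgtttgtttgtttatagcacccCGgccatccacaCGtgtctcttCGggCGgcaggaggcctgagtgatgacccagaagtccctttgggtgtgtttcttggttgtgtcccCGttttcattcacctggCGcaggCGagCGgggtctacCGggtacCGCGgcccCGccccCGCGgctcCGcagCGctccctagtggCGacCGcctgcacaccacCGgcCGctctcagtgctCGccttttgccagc
Sfrp5: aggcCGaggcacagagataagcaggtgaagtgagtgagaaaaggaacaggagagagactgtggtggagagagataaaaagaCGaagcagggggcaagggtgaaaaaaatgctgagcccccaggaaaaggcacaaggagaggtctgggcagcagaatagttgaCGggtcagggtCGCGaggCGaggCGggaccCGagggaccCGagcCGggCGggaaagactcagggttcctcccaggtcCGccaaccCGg
Axin2: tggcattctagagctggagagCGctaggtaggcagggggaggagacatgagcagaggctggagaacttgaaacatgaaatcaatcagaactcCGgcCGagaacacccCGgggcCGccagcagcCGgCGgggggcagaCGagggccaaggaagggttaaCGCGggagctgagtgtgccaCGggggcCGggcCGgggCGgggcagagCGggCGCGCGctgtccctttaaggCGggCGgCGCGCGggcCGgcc
These stretches held 21, 13 and 24 CpG dinucleotides. Over windows of 300 bases, which add 50 bases after the start, the CpG count was 25 for Wif1, 15 for Sfrp5 and 31 for Axin2, beside a median of 7 over 32851 such windows. High CpG counts were not particular to these members. The windows of the others held 22 (Sfrp2), 20 (Frzb), 9 (Dkk1), 18, 21, 8 and 5 (Lef1) and 34 and 7 (Tcf7l2). The GC content of the Wif1, Sfrp5 and Axin2 windows was 63.0%, 61.3% and 70.0%, beside a median of 52.7%. The TCF/LEF core motifs CTTTGAT and CTTTGTT, searched on both strands, were in none of these 3 windows. Of the 12 windows that the table holds for 8 members, 2 held a match, both to CTTTGTT: in Dkk1 from base -98 to -92 and in a downstream start of Tcf7l2 from base -14 to -8, counted from the transcript start. Either motif was in 9.33% of all windows. A match, or the lack of one, describes letters only.

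Every value below is the log2 processed signal of a probe less the 75th percentile of its array, and a difference is KO minus control on that scale. Of the 16 member probes, 15 were well above background on all 4 arrays and entered the fit with 37516 probes. The Dkk1 probe was well above background on 0 arrays, with a median spot intensity of 27.5 and 28 in control and 33 and 27 in KO, beside local backgrounds of 24 to 29. Dkk1 therefore has no level here. Each member probe is a lone spot on the array, and 0 of the 16 lay on a patch of raised local background.

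Before the members, the labels and the tissue were checked. The brighter Derl2 probe had log2 signals of 2.13 and 2.20 in control and 0.81 and 0.70 in KO, so the KO signal was 37.6% of control. All 8 granule cell markers and all 8 Purkinje cell markers were above background, and their summed signals differed little between arrays, from 322 to 338 and from 571 to 612 in units of the 75th percentile. Such sums are led by the brightest genes. The Purkinje cell marker Car8 varied more, with 3.99 and 3.13 in control and 1.02 and 3.78 in KO. The choroid plexus markers stood apart: their summed signal was 140 on control replicate 2 and between 7.48 and 7.93 on the other 3 arrays. Like sums do not mean like signal of each marker. Ttr read 6.82 on control replicate 2, -1.23 on control replicate 1, and 0.33 and -2.87 in KO. The controls lay at positions 1 and 2 of the slide and the KO samples at positions 3 and 4, so slide position and group cannot be told apart. In bulk tissue, fewer cells of a type and less RNA per cell cannot be told apart either.

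Over all member probes, 6 of 15 had both KO values below both control values, and 0 of 15 had both above. Among all 37516 probes, 26.9% were lower in that sense and 22.5% higher. A gap of at least 1.5-fold with separate groups was found for Wif1 and Sfrp5 alone among the members, in the direction of lower KO signal, where the share over all probes was 2.13%. In the other direction 0 of 15 passed that size, beside 3.71% of all probes. The median difference was -0.28 over the 15 member probes and -0.03 over all probes. The contrast that gives these counts also chose the set, so nothing is read from them. By limma, 0 of the 37516 probes of the whole table had a Benjamini-Hochberg adjusted p under 0.05 (percent called 0), with 5265 at an unadjusted p under 0.05.

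**Figure D1:**
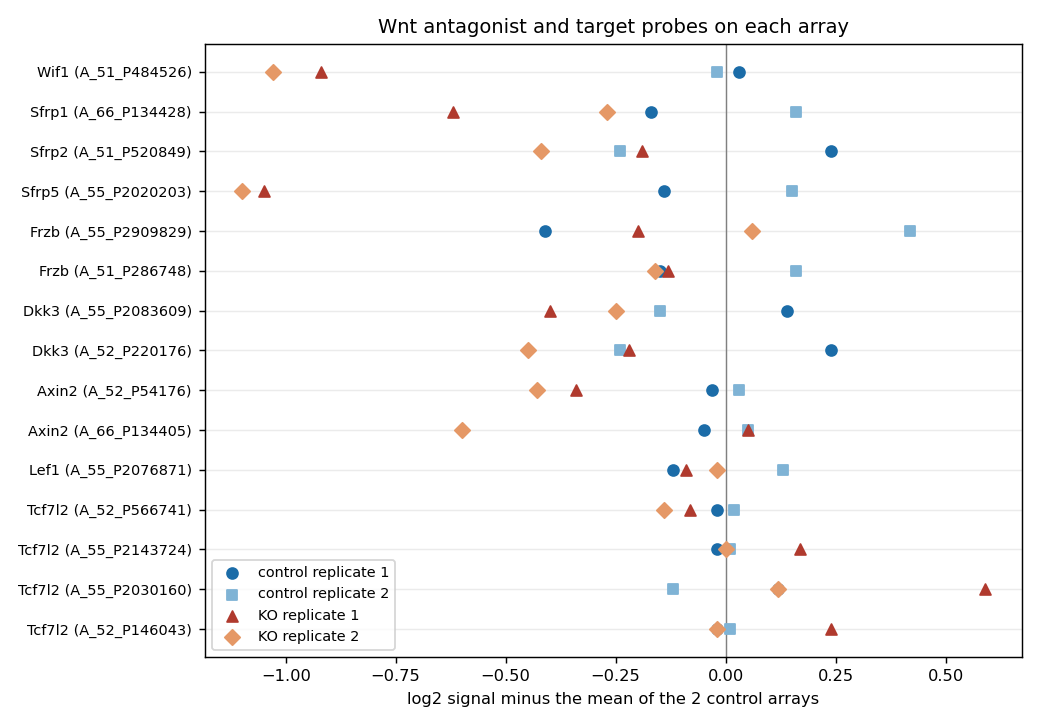
Log2 signal of the 15 member probes above background, less the mean of the 2 control arrays for that probe, with 1 point for each array (control in blue, KO in red and orange). The KO points of Wif1 and Sfrp5 lie apart from the control points by about 0.9, and those of Lef1 and of the Frzb probe A_55_P2909829 lie between the control points. On 3 of the 4 Tcf7l2 probes KO replicate 1 lies above both control points.

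Wif1 encodes Wnt inhibitory factor 1, which binds Wnt ligands through its WIF domain. It read 0.04 and -0.01 in control and -0.91 and -1.02 in KO. The control arrays were nearly alike and both KO arrays were lower, with a gap of 0.90 between the nearest control and KO values. From a control mean of 0.01 ± 0.033 (SD, n = 2) to a KO mean of -0.96 ± 0.075 (SD, n = 2), the difference was -0.98 (SE 0.10), which left 50.9% of the control signal. Across the 37516 probes, 341 (0.909%) had a difference as low or lower. The low Wif1 signal chose the set, so this rank is a description and no test. The spot was far above its surroundings: its median intensity was 847 and 823 in control and 449 and 386 in KO, over local backgrounds of 25 to 27. Without control replicate 2, the array with the highest choroid plexus signal, the Wif1 difference was -1.0. Because the groups were separate, leaving out an array could not change the sign. The part of choroid plexus RNA in the Wif1 signal was not tested.

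Sfrp5 encodes a secreted Frizzled-related protein, which carries a cysteine-rich domain like that of the Wnt receptors. Its log2 signal was -2.30 and -2.01 in control and -3.21 and -3.26 in KO. The KO arrays agreed closely and were both below the controls, with a gap of 0.91. The difference was -1.08 (SE 0.14), from -2.16 ± 0.204 (SD, n = 2) to -3.23 ± 0.030 (SD, n = 2), so that 47.3% of the control signal was left. The spot had median intensities of 189 and 227 in control and of at most 110.5 in KO, over backgrounds of 22 to 24. Background correction by normexp with an offset of 50, which draws dim spots together, gave a difference of -0.68. Without control replicate 2, the Sfrp5 difference was -0.93, and with separate groups its sign could not change.

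The other Sfrp genes of the same subfamily, Sfrp1 and Sfrp2, were lower in KO by smaller amounts. Sfrp1 read -3.82 and -3.49 in control and -4.27 and -3.92 in KO, a difference of -0.44 (SE 0.19). Its groups were separate by 0.10, which is less than the SD of either group (0.231 and 0.249), and the difference was -0.27 without control replicate 2, -0.26 without KO replicate 1 and -0.22 under normexp. Sfrp2 read -2.33 and -2.81 in control and -2.76 and -2.99 in KO. Its groups overlapped, since KO replicate 1 lay above control replicate 2, and the difference of -0.30 (SE 0.20) was -0.07 without control replicate 1 and -0.54 without control replicate 2.

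Frzb, also known as Sfrp3, had 2 probes. The first, A_55_P2909829, read -2.30 and -1.47 in control and -2.09 and -1.83 in KO, with both KO values between the control values. The second, A_51_P286748, read -2.31 and -2.0 in control and -2.29 and -2.32 in KO. On both, control replicate 2 was the highest array, as it was for the choroid plexus markers; their part in the Frzb signal was not tested. The differences were -0.07 (SE 0.31) and -0.15 (SE 0.14), and without control replicate 2 they were 0.34 and 0.01, so no direction can be given for Frzb.

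Dkk3 encodes a secreted glycoprotein of the Dickkopf family. On the brighter of its 2 probes, A_55_P2083609, the signal was 1.89 and 1.60 in control and 1.35 and 1.5 in KO. The groups were separate by 0.10, and the difference was -0.32 (SE 0.15), beside SDs of 0.201 in control and 0.107 in KO. The dimmer probe, A_52_P220176, read -1.09 and -1.57 in control and -1.55 and -1.78 in KO, a difference of -0.33 (SE 0.20) with overlapping groups. The probes gave alike differences, and both rested on control replicate 1: without it they were -0.18 and -0.09.

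**Figure D2:**
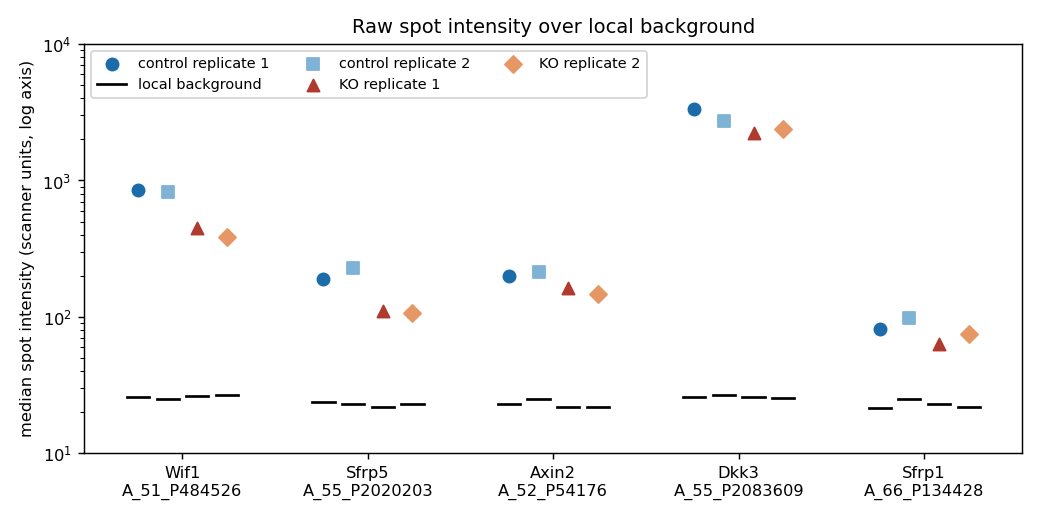
Median spot intensity in scanner units on a log axis for Wif1, Sfrp5, Axin2, Dkk3 and Sfrp1 (brightest probe of each), with 1 point for each array and black bars for the local background. Wif1 spots lie between 386 and 847 over backgrounds near 25, and those of Sfrp1 between 63 and 98.5 over backgrounds of 21.5 to 25.

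Axin2 encodes a scaffold protein of the beta-catenin destruction complex and is itself switched on by beta-catenin, so that its RNA is widely used as a readout of the pathway. On the brighter probe, A_52_P54176, its signal was -2.19 and -2.13 in control and -2.50 and -2.59 in KO. The groups were separate, with a gap of 0.31. The difference was -0.39 (SE 0.10), from -2.16 ± 0.043 (SD, n = 2) to -2.55 ± 0.064 (SD, n = 2), or 76.4% of the control signal; under normexp it was -0.26. The other probe, A_66_P134405, was close to background, with spot intensities of 38 to 52.5. It read -5.01 and -4.91 in control and -4.91 and -5.56 in KO, so that its groups overlapped and its difference of -0.28 (SE 0.24) came from KO replicate 2; without that array it was 0.05.

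Lef1 and Tcf7l2 encode DNA-binding factors that recruit beta-catenin to target genes. Lef1 read -0.04 and 0.21 in control and -0.01 and 0.06 in KO, with both KO values between the controls and a difference of -0.06 (SE 0.13). Its sign turned under scaling to the spike-in probes of the array (0.03) and without control replicate 2 (0.06). Tcf7l2 had 4 probes, which did not agree in sign. The brightest, A_52_P566741, read -0.29 and -0.25 in control and -0.35 and -0.41 in KO, a difference of -0.11 (SE 0.10) with a gap of 0.06, and -0.02 under spike-in scaling. The differences of the other Tcf7l2 probes were 0.09 (SE 0.11) for A_55_P2143724, 0.35 (SE 0.20) for A_55_P2030160 and 0.11 (SE 0.13) for A_52_P146043, each with touching or overlapping groups and KO replicate 1 as the highest array; without that array they were 0.01, 0.12 and -0.02. No direction can be given for either factor.

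The probe patterns were also set side by side. For each gene the brightest probe above background on all 4 arrays was centred on its mean, and its distance to Wif1 was taken over the 4 values. Among 16058 genes, the nearest that are not members were Ccbe1 (distance 0.12 on the log2 scale), Mrap2 (0.13), Pla2g2c (0.17), Bin2 (0.18) and Lalba (0.18). Mrap2, which encodes an accessory protein of melanocortin receptors, read -0.58 and -0.63 in control and -1.58 and -1.5 in KO. Sfrp5 stood at a distance of 0.26, with 14 genes nearer, and was the nearest member, followed by Axin2 at 0.59 with 479 genes nearer. These distances describe 4 arrays. They rest mainly on the step between the groups, and Ccbe1, Pla2g2c and Bin2 are dim, with differences no larger than 0.33 in size under normexp.

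The rest of the Wnt pathway was read in 6 lists of 95 genes, of which 80 had a probe above background. By limma with adjustment over all probes, 0 of 80 passed 0.05 as higher and 0 of 80 as lower in KO, the lowest adjusted value being 0.28. Both Derl2 probes also missed this threshold in that fit, at differences of -1.41 and -1.73 (limma adjusted p 0.273 each). A count of 0 therefore does not show that the pathway genes are unchanged. Unadjusted, 7 genes (8.75%) had a limma p under 0.05, beside 8.81% of all 16524 named genes. On their brightest probes, 27 of the 80 genes had separate groups with KO lower and 7 with KO higher. Over all named genes those shares were 32.1% and 13.8%, so the count of lower genes was close to the background. With a size of at least 1.5-fold as well, 5 were lower (Kremen2, Sost, Dkkl1, Wnt16 and Dvl3) and 0 higher, beside 2.58% and 1.31% of all named genes. Nothing is read from that count, because Kremen2 and Sost passed the filter through the control arrays, where they are high, and Dkkl1 has a spot on a patch of raised background. Wnt16 is named here after its values were seen. The median difference was -0.07 for the pathway genes and -0.06 for all named genes.

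Among the other antagonists, 8 of 13 genes had a probe above background, with 5 lower and 0 higher by separate groups and a median difference of -0.17. The shares over all named genes, 32.1% lower and 13.8% higher, stand beside this count and those of the lists below. Nothing is read from the antagonist count, because its lower genes include Kremen2, Sost and Dkkl1, with the limits given above. Kremen2 encodes a receptor that works with DKK1, and Sost encodes sclerostin, a secreted ligand of LRP5 and LRP6. Both were well above background on the 2 control arrays and on 1 of the 2 KO arrays, so their KO means hold a value near background and the sizes are uncertain. Kremen2 read -5.06 and -5.07 in control and -6.34 and -5.71 in KO, a difference of -0.96 (SE 0.23; limma adjusted p 0.28). Sost read -5.34 and -4.09 in control and -5.81 and -5.94 in KO, with -1.16 (SE 0.44; limma adjusted p 0.358) which was -0.53 without control replicate 2 and -1.78 without control replicate 1. Under normexp the differences were -0.25 and -0.30. Dkkl1, named after its values were seen as the other antagonist past 1.5-fold, had its spot on the patch of raised background of control replicate 1, where it read -1.08 against -2.49 on control replicate 2.

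Of the ligands and their secretion genes, 15 of 21 were measured, with 6 lower and 0 higher by separate groups and a median of -0.17. Wnt4, a ligand, read -0.33 and -0.15 in control and -0.67 and -0.78 in KO, a difference of -0.49 (SE 0.12; limma adjusted p 0.283). Wls encodes the carrier that brings Wnt proteins to the cell surface, and read 0.56 and 0.67 in control and 0.26 and 0.23 in KO, with -0.37 (SE 0.10; limma adjusted p 0.301). The second Wls probe had -0.06 (SE 0.13), with overlapping groups. The receptor and R-spondin list had 19 of 21 genes measured, with 7 lower and 2 higher by separate groups and a median of -0.08. Its leading genes were the Frizzled receptors Fzd6, with -0.27 (SE 0.10; limma adjusted p 0.347), and Fzd4, with -0.23 (SE 0.11; limma adjusted p 0.415).

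The intracellular lists were centred close to 0. The destruction complex and Dishevelled list, with 14 of 14 genes measured, had a median of -0.01, with 3 lower and 2 higher. Dvl3, a Dishevelled protein that relays the receptor signal, had -0.60 (SE 0.19; limma adjusted p 0.328) on its brightest probe and -0.09 (SE 0.22) on the other. Csnk1e, a casein kinase, had 0.16 (SE 0.10; limma adjusted p 0.504) on its brightest probe, and 0.25 under spike-in scaling. Its other probes had 0.05 (SE 0.10), with overlapping groups, and 0.17 (SE 0.13), with separate groups. The nuclear partners had a median of -0.04 over 12 genes, with 4 lower and 1 higher. Pygo1, a co-activator bound to beta-catenin through BCL9, had -0.45 (SE 0.13; limma adjusted p 0.307), which was -0.19 under normexp, and Tcf7l1, a TCF factor, had -0.23 (SE 0.16; limma adjusted p 0.538), which was -0.06 without KO replicate 2.

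The further target genes are of interest beside Axin2. Of 14 listed, 12 were measured, with 2 lower and 2 higher by separate groups and a median of -0.06. Myc, a growth-promoting transcription factor, read -4.24 and -3.76 in control and -3.60 and -3.38 in KO, a difference of 0.50 (SE 0.20; limma adjusted p 0.38) that was 0.26 without control replicate 1 and 0.28 under normexp. Tnfrsf19, a receptor of the TNF receptor family, read 1.07 and 1.30 in control and 0.91 and 0.83 in KO, with -0.31 (SE 0.13; limma adjusted p 0.38), and -0.20 without control replicate 2. Its other probe had 0.14 (SE 0.10), the opposite sign. The target genes thus lay on both sides of 0, and the groups were not all separate.

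**Figure D3:**
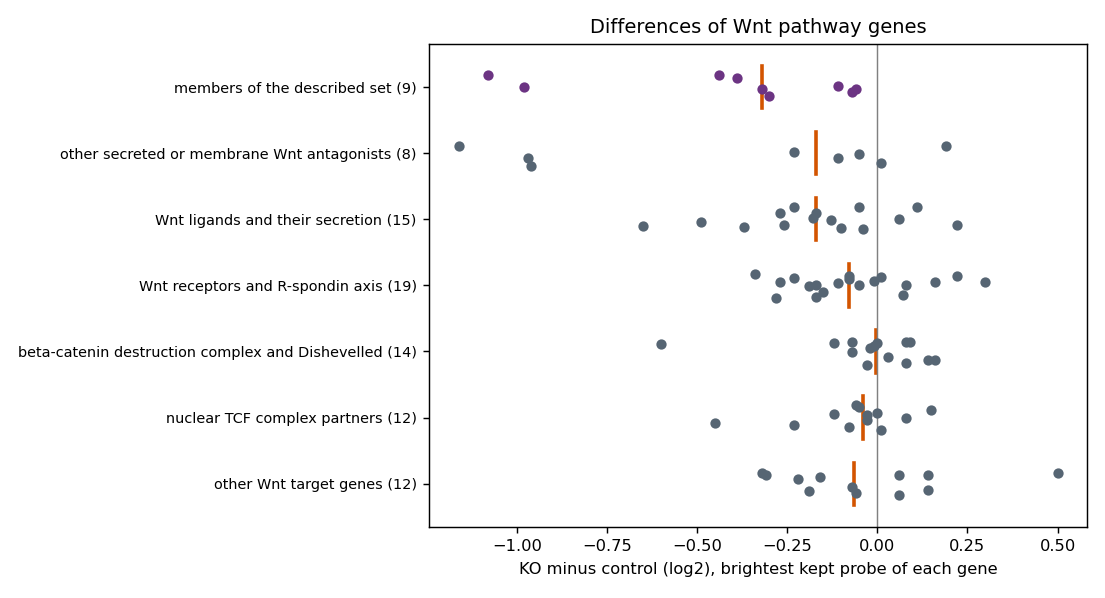
KO minus control on the log2 scale for the brightest probe of each gene, by list, with 1 point for each gene, its vertical place without meaning, and an orange bar at the median. The 9 measured members have a median of -0.32, with Wif1 and Sfrp5 near -1, and the other lists have medians between -0.17 and -0.01.

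Marker genes of the cell types in the dissected tissue were read on the same arrays. Over all named genes, 63.9% had a difference below 0, and by separate groups 32.1% were lower and 13.8% higher. The marker counts were not tested against these shares. The choroid plexus list had 8 of 8 genes above background, and all 8 were highest on control replicate 2. Aqp1, a water channel of that epithelium, read 1.23 there and -5.05 on control replicate 1. Ependymal markers had 0 of 6 genes with a difference above 0, and separate groups with 4 lower and 0 higher. Their summed signals were 11 and 11.9 in control and 9.07 and 10.3 in KO. Microglia markers had 0 of 8 genes with a difference above 0, and separate groups with 5 lower and 0 higher. Their sums were 23.9 and 23.3 in control and 18.4 and 21.7 in KO. Oligodendrocyte markers had 1 of 8 genes with a difference above 0, and separate groups with 5 lower and 1 higher. Their sums were 406 and 384 against 343 and 379.

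Bergmann glia and astrocyte markers had 3 of 10 genes with a difference above 0. Counting separate groups only, 4 were lower and 0 higher. Their sums were 152 and 162 in control and 136 and 143 in KO. Meningeal fibroblast markers summed to 36.1 and 37.3 in control and 29 and 35.6 in KO, and endothelial markers to 24.4 and 24.3 against 24.9 and 22.3. The midbrain and thalamus list, read because Tcf7l2 and Lef1 are strong there, had only 3 of 6 genes above background, with Sox14, Gbx2 and Slc6a3 below it. Its sum was 4.34 and 4.57 in control and 7.24 and 6.12 in KO, led by Pou4f1, which read 1.65 and 1.51 in control and 2.32 and 2.10 in KO. Summed signals were 243 and 234 in control and 227 and 219 in KO for molecular layer interneurons, and 20.9 and 23.2 against 21.3 and 20.4 for unipolar brush cells. They were 16.3 and 18 against 13.7 and 17.1 for oligodendrocyte precursors, 21.7 and 21.8 against 18.1 and 19.9 for pericytes, and 403 and 585 against 413 and 396 for red blood cells. In all 15 lists 0 markers passed the adjusted limma threshold. The part of these marker differences in the member values was not tested.

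**Figure D4:**
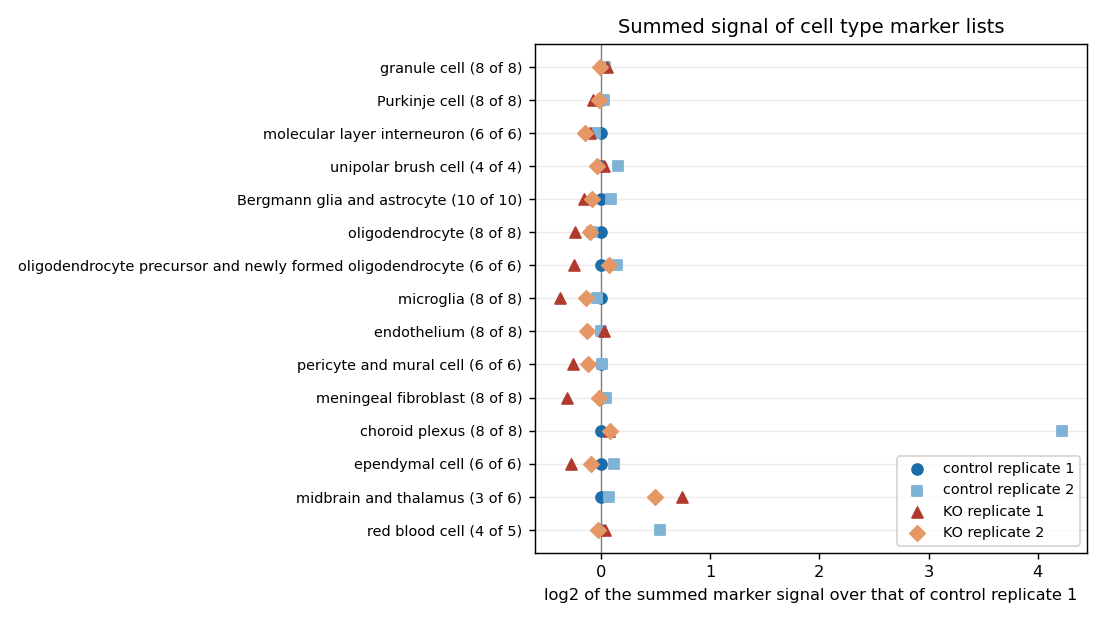
Summed signal of each marker list on each array, as the log2 ratio to control replicate 1, with the number of markers above background in brackets. Choroid plexus markers are far higher on control replicate 2 than on the other arrays, and the sum of the midbrain and thalamus list is higher on both KO arrays.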

How the data were processed

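RNA from 2 control and 2 KO samples, 150 ng each, was labelled with Cy3, per the labels' protocols. Per the file headers, the deposited scanner files were written by Feature Extraction 12.1.1.1, whereas the submitters' processing notes list 10.7.1.1. Their processed signal is a linear intensity, background-subtracted within the array and not scaled between arrays. Other deposited columns are flags from the same software, scored 0 or 1. The authors' series table holds log2 values; between arrays its differences equalled those of the scaled scanner values within 0.01 for 100.0% of 35661 probes, so scale and direction are settled, while the value each probe was centred on is unknown. Its column medians are 0.007 and -0.194 (control) and -0.160 and -0.222 (KO).

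Spots flagged as outliers (65 to 176 an array) were left out, log2 signals were averaged over the spots of a probe, and the 75th percentile of the array was subtracted. Of 56605 probes, 37516 had a value on every array and passed the background flag on each array of the control or of the KO group. The share of spots above background was 66.4% to 69.4%, and 0 were saturated. Names came from a RefSeq table (GRCm38.p6): 32994 of the 35886 probes with a RefSeq accession matched. The groups were compared with limma 3.58.1 (R 4.3.3; lmFit, eBayes, Benjamini-Hochberg over all probes); the code was tested on simulated data. The number of arrays limits the precision. Members and lists were chosen with earlier results of these data known. Named genes were all members, Derl2, the 2 genes with the smallest p in each pathway list, and the 5 genes nearest to Wif1. Lists used the brightest probe of a gene. Marker lists of 15 cell types were read. A patch of raised background holds spots whose local background is over 1.5 times the array median, and spots within 2 rows or columns. Alternatives were quantile, median, spike-in (8 probes) and normexp processing, the authors' values, other filters, flagged spots kept, patch spots left out, an intensity trend, a replicate block and each array left out. All arrays share 1 slide.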

Additional observations from a re-analysis of the deposited data

How the results depend on the processing

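With 2 arrays a group, no setting can show a small change, and dim probes near background (Axin2 A_66_P134405, Sfrp1, Kremen2, Sost) limit what their differences say. Wif1 was lower in KO in all 12 alternatives, from -1.03 to -0.87, and Sfrp5 in all 12, from -1.22 to -0.68. Axin2 A_52_P54176 ran from -0.43 to -0.26. Where the groups are separate, as for these probes and for Derl2, leaving out 1 array cannot change the sign. The other alternatives process the same arrays again, and the low Wif1 signal on these arrays chose the set. In all, 7 member values moved by more than 1 SD between replicates, all under spike-in scaling or normexp; leaving out 1 of 2 arrays cannot move a difference past that SD, and so says nothing by that measure. Without control replicate 2 both Frzb probes changed sign.

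By limma, 0 probes had an adjusted p under 0.05 at first (5265 unadjusted); there was 1 under quantile normalization, the median scaling, spike-in scaling and omission of patch spots, 2 under normexp and 4 under the intensity trend; with an array left out it ran from 0 to 98, the highest without control replicate 2. There the lone array of a group is assumed to vary like the other group. The pathway count stayed at 0 throughout. Both Derl2 probes kept their direction; with the intensity trend both passed the limma threshold (adjusted p 0.0166 each), and under normexp A_55_P2178203 did (0.0384), over a range of 0.0166 to 0.414. Member probes with separate groups and higher in KO, 0 at first, numbered 1 under quantile normalization, the median scaling, normexp and with flagged spots kept, 2 with the authors' values and 3 under spike-in scaling. Without 1 array they ran from 0 to 3, and lower ones, 6 at first, from 6 to 11; fewer arrays make separation easier. Pathway genes with KO higher, 7 at first, numbered 11 under quantile normalization, 12 under normexp and 17 under spike-in scaling, where 16 were lower in place of 27, since that scaling moves the median of all probes from -0.028 to 0.060; without 1 array the counts ran from 14 to 22 and from 36 to 47.

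Replicate numbers are shared by the groups but name no common source. With the replicate block the count of probes past the threshold was 0, as without it. The block cannot move a difference in a balanced design, so an unchanged difference shows nothing. The deviations of same-numbered arrays correlated at 0.12.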
